A study of Mus musculus with 8 samples.

Results

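The genes described are the replication-dependent histone genes, defined as the protein-coding genes whose symbol or synonym starts with Hist1h, Hist2h, Hist3h or Hist4h. The mouse annotation (GENCODE release 21, build GRCm38) holds 67 such genes, and 65 of them are among the 46078 genes of the count table. Hist1h2bh and Hist1h2bm have no entry in it, so they have no expression values here and enter only the descriptions of promoters and gene pairs. By class the 65 comprised 6 linker histone H1 genes, 18 H2A genes, 16 H2B genes, 12 H3 genes and 13 H4 genes. No member was found by a synonym alone, and 3 histone pseudogenes were left out.

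The study profiled poly-A RNA of BV-2 cells, an immortalised mouse microglial line, by single-end sequencing of 100-base reads in 8 libraries. The 4 groups had 2 libraries each: Control (no LPS, AGE or FruArg), LPS, AGE+LPS and FruArg+LPS. After 4 h without serum, cells received 100 ng/mL of the bacterial endotoxin LPS for 20 h, and aged garlic extract (AGE, 0.5% v/v) or FruArg (3 mM), a conjugate of fructose and arginine found in it, was added 1 h before LPS. LPS against Control asks what the endotoxin changes. AGE+LPS or FruArg+LPS against Control gives the joint change of the endotoxin and the compound, which cannot be split without a group given the compound alone. The comparisons with LPS ask what AGE or FruArg changes in stimulated cells, and the last compares both compounds. Total counts were 2707500 and 8995052 in Control, 8720784 and 12069807 in LPS, 6795464 and 6669072 in AGE+LPS and 4692715 and 5822113 in FruArg+LPS, replicate 1 first as in every pair of values. Levels are given as CPM, counts divided by the library total after TMM scaling and put on a common scale. A floor of 3 counts equalled 0.249 to 1.11 CPM of the library total before TMM scaling, depending on the library, and covers counting error only. A DEG had a change of at least 2-fold and a Benjamini-Hochberg adjusted p from edgeR below 0.05 over all genes tested. The p-values rest on 2 libraries per group, which the series design calls biological replicates, and a p that missed the threshold does not show that values did not differ.

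Core histone genes of classes H2A, H2B, H3 and H4 encode the proteins of the nucleosome, and H1 genes encode the linker histones bound between nucleosomes. Replication-dependent histone genes lie in clusters, are transcribed mainly in S phase, and yield mRNAs that end in a conserved 3′ stem-loop in place of a poly-A tail. Libraries made from poly-A RNA therefore hold these transcripts only in part, through polyadenylated forms or carried-over RNA, and the share captured is not known here.

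Counts of members made up 0.265% and 0.230% of all counts in the Control libraries, 0.0821% and 0.0762% in LPS, 0.113% and 0.0803% in AGE+LPS and 0.0841% and 0.0783% in FruArg+LPS. Of the 65 members, 53 and 54 had counts in the Control libraries, 52 and 52 in LPS, 52 and 50 in AGE+LPS and 45 and 50 in FruArg+LPS. The 10 members at 0 in every library were Hist1h2aa, Hist1h2ao, Hist1h2ap, Hist2h2aa1, Hist2h2aa2, Hist1h2bq, Hist2h2bb, Hist2h3b, Hist2h3c1 and Hist1h4m. A median of 2.58% of the 100-base windows of these 10 genes matched no other annotated gene, against 67.8% for the 55 members with counts, but the share was 89.7% for Hist1h2aa. Why these genes had no counts was not tested. Gm20628, an annotated gene whose exons cover Hist2h3b and Hist2h2bb, had 149 and 344 counts in the Control libraries and 48 and 38 in LPS. Its log2 fold change in LPS against Control was -3.02. Those of Gm20632 and Gm20633, which overlap Hist2h2aa2 and Hist2h2aa1, were 0.78 and 0.32 and did not pass the test.

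Summed over all 65 members, the level was 2241 and 1941 CPM in Control, 897 and 846 in LPS, 1095 and 813 in AGE+LPS and 907 and 868 in FruArg+LPS. The H3 sum was 265 and 234 CPM in Control and 29.6 and 17.8 in LPS, so that the LPS mean was 9.48% of the Control mean. The LPS mean was 19.6% of the Control mean for H4, 24.7% for H2A and 41.0% for H1. The H2B sum stood at 409.7 and 453 CPM in Control and 351 and 507 in LPS, and the LPS mean was 99.4% of the Control mean. Single genes made up most of the H1 and H2B sums of stimulated cells. Hist1h1c held 46.7% of the H1 sum in Control and 89.6% in LPS, and Hist1h2bc held 43.3% of the H2B sum in Control and 87.1% in LPS. Without these 2 genes, the sum over all members was 1726 and 1492 CPM in Control and 317 and 216 in LPS, and the LPS, AGE+LPS and FruArg+LPS means were 16.6%, 17.3% and 16.3% of the Control mean. The sums were not tested.

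**Figure D1:**
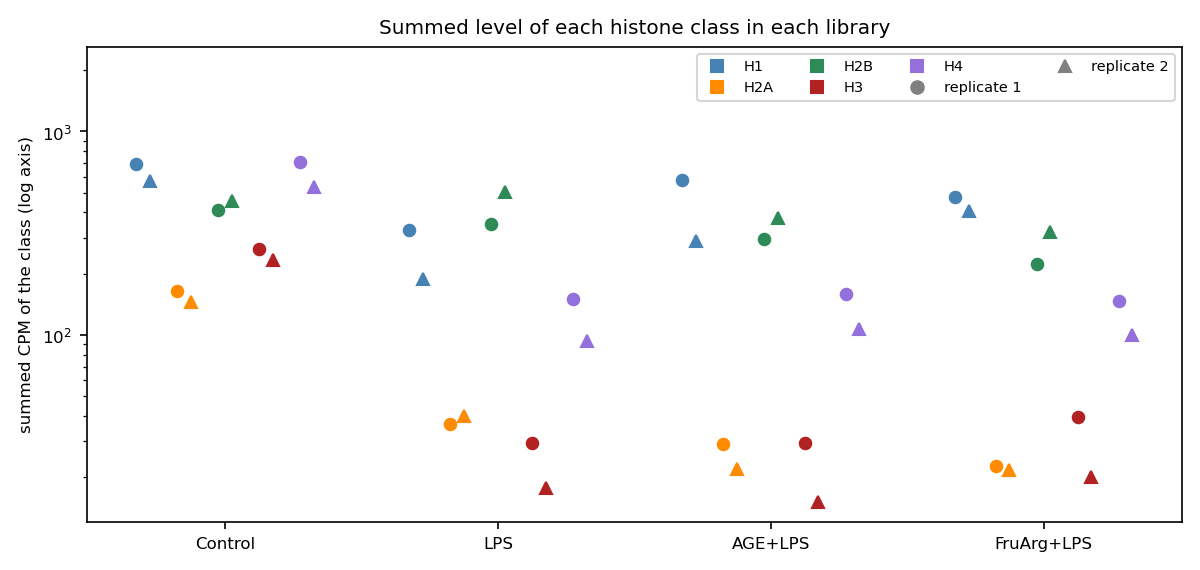
Summed CPM (log axis) of the members of each histone class in each library of the 4 groups, with circles for replicate 1 and triangles for replicate 2. The H3 and H4 sums of every LPS-treated library lie below both Control libraries, whereas the H2B sums of LPS (351 and 507 CPM) lie about the Control values (409.7 and 453 CPM).

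In LPS against Control, 50 of the 65 members could be tested, 10 were at 0 in all libraries and 5 had too few counts. Of the 50, 42 were down-regulated, 2 were up-regulated and 6 did not pass the test. Over all 12888 genes tested, 11.1% were called lower and 11.5% higher. The median log2 fold change of the members was -3.03 against 0.02 for all genes, and 46 members were lower in LPS in both sequencing lanes. DESeq2 also called 42 lower and 2 higher. Over members with at least 10 counts in every library the median was -2.53. Scaling by library size alone moved the median of all genes to -0.40 and that of the members to -3.45, under which Hist1h2bc was no longer called and Hist1h2be and Hist1h2bg were called lower. Leaving out LPS replicate 1 or LPS replicate 2 moved the members' median to -3.39 or -2.72. In RNA from bulk cells, fewer cells in S phase and less histone mRNA per cell cannot be told apart.

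**Figure D2:**
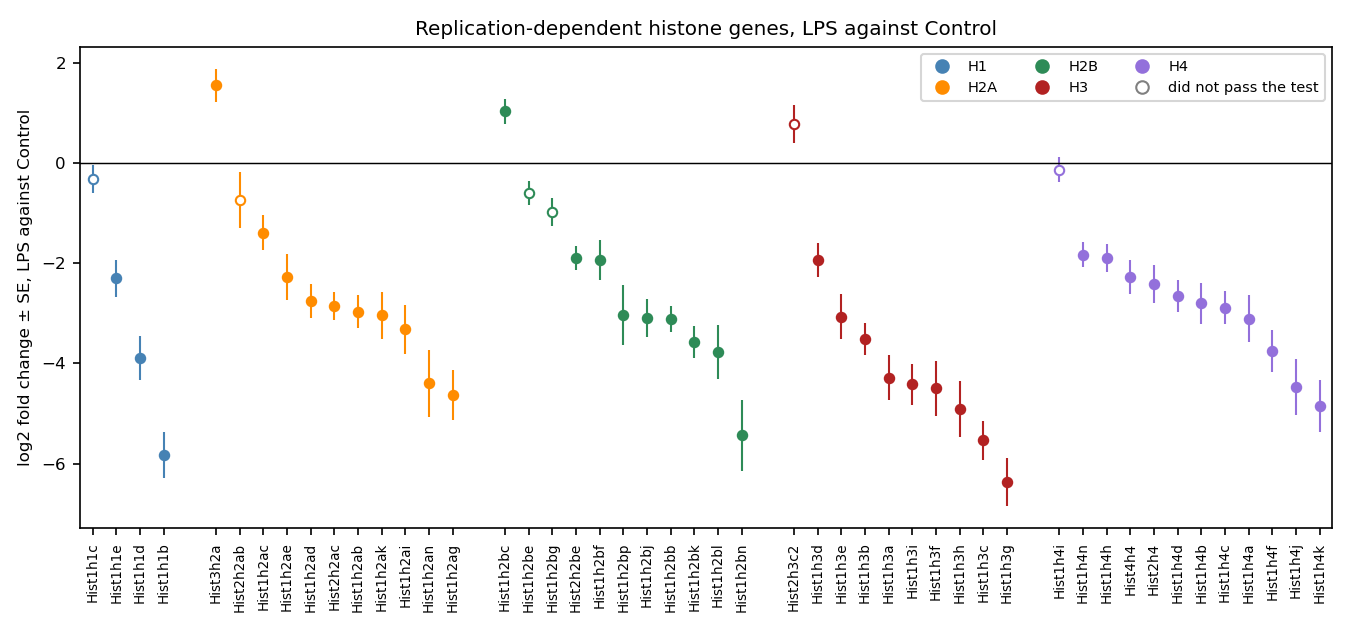
Log2 fold change with its standard error (edgeR, 2 libraries per group) of 48 of the 50 members tested in LPS against Control, by histone class, open symbols marking members that did not pass the test. Hist1h2af and Hist1h2ah, with 1 count in the LPS group, are left out, and the 2 up-regulated members are Hist3h2a and Hist1h2bc, the second of which loses its call when libraries are scaled by size alone.

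Of the 4 H1 genes tested, 3 were down-regulated in LPS against Control. Hist1h1b (ENSMUSG00000058773, chr13:21779883-21780625), which encodes linker histone H1.5, had 125 and 134 CPM in Control and 3.76 and 0.921 in LPS (log2 fold change -5.83, SE 0.46, adjusted p = 4.2e-05). Hist1h1d, the gene of H1.3, had 141 and 113 CPM in Control and 12.8 and 4.24 in LPS (log2 fold change -3.89, SE 0.43, adjusted p = 0.0002). Hist1h1e, which encodes H1.4, had 77.0 and 82.5 CPM in Control and 22.9 and 9.03 in LPS (log2 fold change -2.30, SE 0.37, adjusted p = 0.0016). All 3 were lower in both LPS libraries than in either Control library. Their estimates leaned on the lower LPS library: with 1 library left out at a time the log2 fold change ran from -7.07 without LPS replicate 1 to -5.06 without LPS replicate 2 for Hist1h1b, from -4.85 without LPS replicate 1 to -3.26 without LPS replicate 2 for Hist1h1d, and from -3.10 without LPS replicate 1 to -1.76 without LPS replicate 2 for Hist1h1e. Hist1h1c (ENSMUSG00000036181, chr13:23738808-23740367), the gene of H1.2, did not pass the test, with 347 and 243 CPM in Control and 289 and 175 in LPS (log2 fold change -0.31, SE 0.28, adjusted p = 0.44). The gene of H1.1, Hist1h1a, had 1 and 10 counts in Control and 1 and 1 in LPS and was not tested.

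Among 13 H2A genes tested, 11 were down-regulated and 1 was up-regulated in LPS against Control, with a class median of -2.96. H2A genes encode the histone that pairs with H2B. Hist2h2ac (chr3:96220361-96220880) had 28.7 and 30.9 CPM in Control and 3.63 and 4.33 in LPS (log2 fold change -2.86, SE 0.28, adjusted p = 0.00012). Hist1h2ab fell from 19.0 and 18.4 CPM to 2.13 and 2.49 (log2 fold change -2.96, SE 0.33, adjusted p = 0.00019), and Hist1h2ad fell from 22.4 and 17.4 CPM to 2.38 and 3.22 (log2 fold change -2.76, SE 0.34, adjusted p = 0.00035). The fall of Hist1h2ac was smaller, at 15.6 and 10.1 CPM in Control and 4.51 and 4.79 in LPS (log2 fold change -1.39, SE 0.35, adjusted p = 0.015), and it was not called without Control replicate 1 (log2 fold change -1.08, adjusted p = 0.13, range over the alternatives 0.00035 to 0.13) or with 4 groups in one fit (log2 fold change -1.44, adjusted p = 0.051). Hist3h2a (ENSMUSG00000078851, chr11:58954685-58956830), the H2A gene of the smaller cluster on chromosome 11, rose from 4.99 and 6.75 CPM to 14.3 and 20.4 (log2 fold change 1.56, SE 0.33, adjusted p = 0.0061). Both LPS libraries exceeded both Control libraries, and the gene was called in every alternative, with log2 fold changes of 1.13 or more. Its share of the H2A sum was 3.78% in Control and 45.3% in LPS. Exons of Trim17 and of Gm44313 overlap 33.0% of its exon bases, and these genes had at most 9 and 0 counts in any library. Hist1h2af and Hist1h2ah had 1 count each over the LPS group, so no fold is given for them. Hist2h2ab, named after its values were seen, was the H2A gene that did not pass the test (log2 fold change -0.73, adjusted p = 0.36).

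The H2B class, which pairs with H2A, had 11 genes tested, of which 8 were down-regulated and 1 was up-regulated. Hist1h2bb had 65.8 and 65.5 CPM in Control and 8.64 and 6.17 in LPS (log2 fold change -3.12, SE 0.26, adjusted p = 5e-05), and Hist1h2bj had 41.2 and 34.0 CPM in Control and 6.14 and 2.58 in LPS (log2 fold change -3.09, SE 0.39, adjusted p = 0.00039). Hist2h2be fell less far, from 36.2 and 34.3 CPM to 9.52 and 8.93 (log2 fold change -1.90, SE 0.25, adjusted p = 0.00048). These falls were seen in both lanes, and without LPS replicate 1 the log2 fold change of Hist1h2bj was -3.80. Hist1h2bc (ENSMUSG00000018102, chr13:23684199-23692908) had 168 and 205 CPM in Control and 291 and 456 in LPS (log2 fold change 1.04, SE 0.25, adjusted p = 0.013), with both LPS libraries above both Control libraries. Its call was not stable. Without Control replicate 1 the log2 fold change was 0.90 (adjusted p = 0.093), without LPS replicate 2 it was 0.68 (adjusted p = 0.019), and with library size alone it was 0.61 (adjusted p = 0.081), within a range of 1.3e-06 to 0.093 over its alternatives. With 4 groups in one fit its fold lay just below the minimum (adjusted p = 0.038), and the call was lost there too. The direction was the same in all of them. Hist1h2be had 29.0 and 35.3 CPM in Control and 22.4 and 19.3 in LPS and did not pass the test (log2 fold change -0.60, adjusted p = 0.086), nor did Hist1h2bg, named after its values were seen (log2 fold change -0.98, adjusted p = 0.028), whose fold lay just below the minimum and which was called lower without LPS replicate 2 and with 4 groups in one fit.

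H3 genes had the lowest class median, -4.35 over 10 genes tested, of which 9 were down-regulated and none was up-regulated (0 also by DESeq2, and 0 at unadjusted p below 0.05). H3 forms the nucleosome core with H4 and carries many of the known histone tail modifications. Hist1h3c had 36.2 and 37.0 CPM in Control and 1.13 and 0.460 in LPS (log2 fold change -5.54, SE 0.40, adjusted p = 2.5e-05), the latter from 9 and 5 counts. Hist1h3a had 52.4 and 39.2 CPM in Control and 3.63 and 1.10 in LPS (log2 fold change -4.28, SE 0.45, adjusted p = 0.00016). Hist1h3h fell from 37.7 and 21.3 CPM to 1.63 and 0.368 (log2 fold change -4.90, SE 0.56, adjusted p = 0.00022) and Hist1h3b from 21.8 and 24.6 CPM to 2.25 and 1.75 (log2 fold change -3.51, SE 0.33, adjusted p = 8.7e-05). For Hist1h3e the levels were 32.7 and 36.3 CPM in Control and 6.39 and 1.93 in LPS (log2 fold change -3.06, SE 0.45, adjusted p = 0.00098). Every one of these 5 genes was lower in both LPS libraries than in either Control library. With 1 library left out at a time, the log2 fold change ran from -6.22 without LPS replicate 1 to -4.96 without LPS replicate 2 for Hist1h3c, from -6.18 without LPS replicate 1 to -4.08 without LPS replicate 2 for Hist1h3h, from -5.29 without LPS replicate 1 to -3.59 without LPS replicate 2 for Hist1h3a and from -4.11 without LPS replicate 1 to -2.40 without LPS replicate 2 for Hist1h3e. Hist2h3c2, named after its values were seen, was the H3 gene that did not pass, with 3.12 and 5.25 CPM in Control and 7.01 and 7.74 in LPS (log2 fold change 0.78, adjusted p = 0.15). Differences between the classes were not tested.

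H4 genes, which encode the most invariant of the core histones, gave 11 down-regulated genes among 12 tested and a median of -2.73. Hist1h4f had 107 and 80.5 CPM in Control and 10.1 and 3.59 in LPS (log2 fold change -3.76, SE 0.42, adjusted p = 0.00021). Hist1h4c fell from 86.4 and 70.0 CPM to 13.8 and 6.999 (log2 fold change -2.89, SE 0.33, adjusted p = 0.00022) and Hist1h4d from 131 and 97.9 CPM to 23.5 and 12.1 (log2 fold change -2.65, SE 0.33, adjusted p = 0.00036). Smaller falls were found for Hist1h4h, at 90.7 and 63.8 CPM in Control and 24.4 and 16.02 in LPS (log2 fold change -1.90, SE 0.28, adjusted p = 0.001), and for Hist4h4 (chr6:136801553-136804415), at 73.9 and 52.6 CPM in Control and 17.2 and 8.47 in LPS (log2 fold change -2.27, SE 0.34, adjusted p = 0.0011). All 5 were lower in both LPS libraries than in either Control library. The estimate for Hist1h4f ran from -4.64 without LPS replicate 1 to -3.15 without LPS replicate 2 with 1 library left out at a time. Hist1h4i (chr13:22040636-22041362), named after its values were seen, did not pass the test: it had 24.9 and 29.0 CPM in Control and 27.8 and 20.7 in LPS, with overlapping groups (log2 fold change -0.13, adjusted p = 0.73). Per kilobase of exon, the highest levels in Control were 239 CPM for Hist1h4f, 189 for Hist1h1c, 174 for Hist1h1b and 164 for Hist1h4h. In LPS they were 323 CPM per kilobase for Hist1h2bc, 149 for Hist1h1c, 43.0 for Hist1h4h and 33.4 for Hist1h4i. The divisor is the annotated exon length, so the order depends on the annotation. Hist1h1d, with 7425 annotated exon bases, had a Control mean of 127 CPM and 17.1 per kilobase. Hist1h1b, with 743, had 129 CPM and 174 per kilobase. These orders were not tested.

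**Figure D3:**
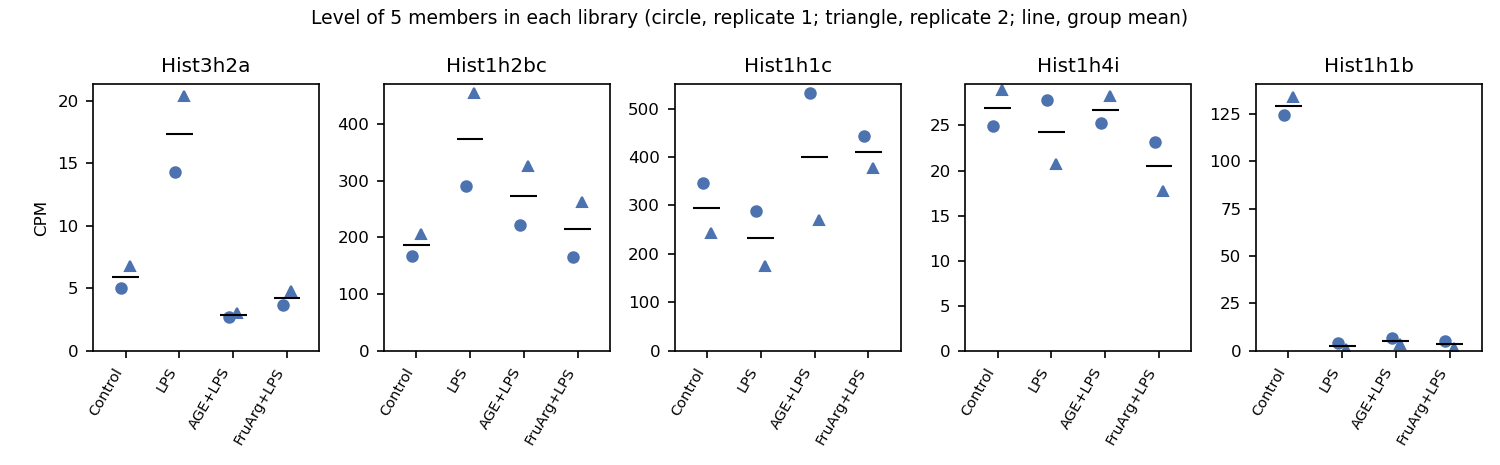
CPM of Hist3h2a, Hist1h2bc, Hist1h1c, Hist1h4i and Hist1h1b in each of the 8 libraries, with group means as lines and a separate axis for each gene. Hist3h2a is highest in the LPS libraries (14.3 and 20.4 CPM), whereas Hist1h1b is highest in Control (125 and 134 CPM).

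The annotated transcripts differ in where they end relative to the stem-loop. A 16-base stem-loop with 6 paired bases and a 4-base loop was searched for after the stop codon of each. Most H1, H2A, H2B and H3 genes in which it was found carry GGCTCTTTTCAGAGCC, some carry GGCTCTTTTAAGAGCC, and Hist2h2ac carries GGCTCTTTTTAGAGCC. In H4 genes the usual form was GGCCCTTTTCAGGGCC, with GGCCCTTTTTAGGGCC in Hist1h4i and Hist2h4 and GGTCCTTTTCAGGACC in Hist1h4b and Hist1h4j, and capitals mark the whole stem-loop. In 21 members the annotated transcript ended within 100 bases after it, in 21 it ran on further, and in 23 no stem-loop was found in the annotated transcript. An annotated transcript that ends at the stop codon cannot hold it, so these 23 may include genes that have a stem-loop. They mix short annotations (312 exon bases for Hist1h4k) with long ones (2620 for Hist2h2be). In LPS against Control, all 16 tested members that end near the stem-loop were down-regulated, with a median of -3.06. Among 18 tested members that run on, 12 were down-regulated, 1 was up-regulated and 5 did not pass the test, with a median of -2.27. The remaining 16 gave 14 down-regulated, 1 up-regulated and 1 that did not pass, with a median of -4.40. Members that were not down-regulated include genes whose transcript runs on: it continues for 840 bases in Hist1h1c, 1643 in Hist3h2a, 1861 in Hist1h2be, 377 in Hist2h3c2, 330 in Hist1h4i and 155 in Hist1h2bg. Hist1h1d, with 4884 bases, and Hist4h4, with 2445, run on as well and were down-regulated. Whether reads come from polyadenylated forms was not tested, and the difference between these sets was not tested.

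Paralogs can share reads. The share of 100-base windows found in no other annotated gene had a median of 99.6% for H1 members with counts, 81.4% for H4, 63.6% for H2B, 60% for H3 and 40.3% for H2A. The share was 8.01% for Hist1h3h and 36.4% for Hist1h2ad, and 100% for Hist1h1b, Hist1h4d and Hist2h2be. Of the 32 tested members with at least 50% of windows in no other gene, 26 were down-regulated and 2 up-regulated in LPS against Control, with a median of -2.76. The other 18 gave 16 down-regulated and 0 up-regulated members and a median of -3.67. This share also counts other genes annotated at the same place, so it does not measure paralogs alone. For Hist2h2ab, 40.3% of windows were in no other gene but 98.6% in no other member. For Hist1h4b these shares were 28.2% and 56.0%, and both genes are among the 18. Hist1h2bc has 74.6% of windows in no other gene, and the windows of Hist3h2a match no other member. Hist1h1e and Hist1h2be overlap each other over 25.7% and 11.2% of their exon bases. How reads that match several places were handled is not given in the sources used here, so values of single paralogs with low shares may include reads of near-identical genes or leave out reads of their own.

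Promoter windows of 300 bases, from 250 before to 50 after the start, were available for 62 of the 67 members (RefSeq, build GRCm38.p6). Motifs were counted on either strand, so a match need not point in the direction of transcription. CCAAT was present in 53 of 62 against 37.4% of 32851 promoters, with 3 of 12 H4 genes and every promoter of the other classes carrying it. TATAAA was found in 35 of 62 against 13.6% of all promoters. The octamer ATTTGCAT was found in 14 of 62 against 1.74%, in 7 of 18 H2A and 7 of 16 H2B promoters and in none of the other classes. AAACACA was found in 9 of 62 against 7.18%, in 5 of 6 H1 promoters. Each motif was counted on its own, overlaps with another motif were not removed, and a match describes sequence, not a bound site. Windows of genes that start head to head can overlap, so a site can be counted for both, as for Hist1h2ae and Hist1h2bg.

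The promoter window of Hist1h1b, the H1 gene with the lowest fold, lies at chr13:21780576-21780875 on the minus strand and reads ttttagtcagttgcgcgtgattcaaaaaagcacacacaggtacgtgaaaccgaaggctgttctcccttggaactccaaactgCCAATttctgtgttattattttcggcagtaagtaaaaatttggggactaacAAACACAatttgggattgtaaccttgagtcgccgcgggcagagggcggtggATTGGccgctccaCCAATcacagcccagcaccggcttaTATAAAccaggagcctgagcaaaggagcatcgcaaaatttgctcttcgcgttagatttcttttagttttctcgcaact, with capitals marking matches to these 4 motifs. That of Hist3h2a, the up-regulated H2A gene, lies at chr11:58954435-58954734 on the plus strand and reads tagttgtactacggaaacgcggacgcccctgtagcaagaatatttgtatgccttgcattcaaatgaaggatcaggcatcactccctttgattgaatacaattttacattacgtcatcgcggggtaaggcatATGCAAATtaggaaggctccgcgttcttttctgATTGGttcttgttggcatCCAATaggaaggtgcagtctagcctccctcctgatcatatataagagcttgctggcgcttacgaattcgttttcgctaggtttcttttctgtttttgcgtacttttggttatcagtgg, with the same use of capitals. In 13 places an annotated pair of H2A, H2B or H3 genes starts head to head within 1000 bases. The starts of Hist1h2ac and Hist1h2bc are 251 bases apart, and in LPS against Control the first had a log2 fold change of -1.39 and the second of 1.04. The window of Hist1h2ac, at chr13:23683910-23684209 on the minus strand, spans the sequence between them and reads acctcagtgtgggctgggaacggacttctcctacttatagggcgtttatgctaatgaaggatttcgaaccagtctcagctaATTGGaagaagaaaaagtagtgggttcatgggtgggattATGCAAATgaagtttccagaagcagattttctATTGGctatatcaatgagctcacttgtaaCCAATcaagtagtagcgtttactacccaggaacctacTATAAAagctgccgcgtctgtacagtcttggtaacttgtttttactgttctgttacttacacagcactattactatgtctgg, with capitals as before. The starts of Hist2h2ac and Hist2h2be are 239 bases apart, and their log2 fold changes were -2.86 and -1.90. No difference within a pair was tested.

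AGE+LPS against Control used the same Control libraries as LPS against Control. Of 50 members tested, 43 were down-regulated, 0 were up-regulated (edgeR, with 0 higher by DESeq2 and 1, Hist1h2bc, higher at unadjusted p below 0.05) and 7 did not pass the test, and 10 of the 65 were at 0 in all libraries. Over all 12449 genes tested, 7.41% were called lower and 7.64% higher. The median log2 fold change was -2.80 against 0.01 for all genes, and scaling by library size alone moved the latter to -0.24. Over members with at least 10 counts in every library the median was -2.255. By class, 3 of 4 H1, 11 of 13 H2A, 9 of 11 H2B, 9 of 10 H3 and 11 of 12 H4 genes were down-regulated. Hist1h1b had 6.43 and 3.34 CPM in AGE+LPS (log2 fold change -4.70, SE 0.31, adjusted p = 3.3e-05), and Hist1h3h had 1.14 and 0.455 CPM (log2 fold change -5.11, SE 0.49, adjusted p = 0.0002). Both genes lay below either Control library in both AGE+LPS libraries. Without 1 library at a time, their log2 fold changes ran from -5.25 without AGE+LPS replicate 1 to -4.29 without AGE+LPS replicate 2 and from -5.90 without AGE+LPS replicate 1 to -4.59 without AGE+LPS replicate 2. The genes that did not pass included Hist1h1c at 0.46 (adjusted p = 0.37), Hist1h2bc at 0.57 (adjusted p = 0.13) and Hist1h2be at -0.41 (adjusted p = 0.31). Hist3h2a had 2.72 and 3.04 CPM in AGE+LPS and did not pass either (log2 fold change -1.04, adjusted p = 0.11). With the replicate as a block it was called lower (log2 fold change -1.02, adjusted p = 0.034, range 0.034 to 0.63), as 9.33% of all genes were in that fit, and also with library size alone (log2 fold change -1.29, adjusted p = 0.048), as 11.1% were in that one. Hist1h2ac, called at -1.59 (adjusted p = 0.048), was not called without Control replicate 1 (-1.28, adjusted p = 0.09) or without AGE+LPS replicate 2 (-1.01, adjusted p = 0.05), nor with 4 groups in one fit (adjusted p = 0.052), within a range of 1.9e-05 to 0.09. Without AGE+LPS replicate 1 its log2 fold change was -2.52 and the call was kept. Hist2h2be without AGE+LPS replicate 2 (adjusted p = 0.0026, its fold then at the minimum, range 7.1e-07 to 0.013) and Hist1h2bg without Control replicate 2 also lost their calls.

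FruArg+LPS against Control gave 41 down-regulated and 0 up-regulated members of 50 tested (edgeR, with 0 higher by DESeq2 and 0 higher at unadjusted p below 0.05), with 9 that did not pass the test. Over all 12038 genes tested, 7.84% were called lower and 9.59% higher. The median log2 fold change was -3.16 against 0.002 for all genes, and scaling by library size alone moved the latter to -0.40. Over members with at least 10 counts in every library the median was -2.19, against 0.012 for all such genes. By class, 3 of 4 H1, 11 of 13 H2A, 8 of 11 H2B, 9 of 10 H3 and 10 of 12 H4 genes were down-regulated. Hist1h1b had 5.28 and 1.14 CPM in FruArg+LPS (log2 fold change -5.36, SE 0.48, adjusted p = 0.00028), below either Control library in both lanes. Its log2 fold change ran from -6.76 without FruArg+LPS replicate 1 to -4.59 without FruArg+LPS replicate 2. Hist1h3c was left with 0 and 1 counts in FruArg+LPS, and Hist1h2af with 0 in both libraries, at least 22.2-fold lower than in Control at a floor of 3 counts over the group. Setting 6 such members to their floor could not move the members' median of -3.16, as each of these floors lies below it. Hist1h1c (log2 fold change 0.50, adjusted p = 0.16), Hist3h2a (log2 fold change -0.47, adjusted p = 0.53), Hist1h2bc (log2 fold change 0.23, adjusted p = 0.56) and Hist1h2be (log2 fold change -0.68, adjusted p = 0.088) did not pass the test. With library size alone, where 16.1% of all genes were called lower, Hist1h2be was called lower (log2 fold change -1.09, adjusted p = 0.014, range 0.014 to 0.57). Hist1h4a, named after its values were seen, did not pass (log2 fold change -1.76, adjusted p = 0.082) but was called lower with the replicate as a block (log2 fold change -2.01, adjusted p = 0.0015, range 1.1e-11 to 0.093), a fit that called 9.59% of all genes lower. It was also called lower by DESeq2, with library size alone, with a filter of at least 1 count, without Control replicate 2 and without FruArg+LPS replicate 1. Hist1h3e, called at -1.56 (adjusted p = 0.02), was not called with 4 groups in one fit (adjusted p = 0.081, range 4e-10 to 0.081). Hist1h2ac, called at -1.49 (adjusted p = 0.041), was not called without Control replicate 1 (adjusted p = 0.35) or without Control replicate 2 (adjusted p = 0.073), by DESeq2 (adjusted p = 0.058) or with 4 groups in one fit (adjusted p = 0.057), within a range of 0.0012 to 0.35. Without Control replicate 1, 37 members were called, and without Control replicate 2, 35. The comparisons with Control share their Control libraries, so their values are not independent of each other.

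In AGE+LPS against LPS, which asks what AGE co-treatment changes in stimulated cells, 36 members were tested, 10 were at 0 in all libraries and 19 had too few counts. AGE co-treatment gave 1 DEG among them, Hist3h2a, and 35 members did not pass the test, while 0.796% of all 12317 genes tested were called in either direction. A single member among 36 is near what that share gives and is no result about the class. The median log2 fold change was 0.16 against -0.001 for all genes, and its sign turned with the library left out (-0.24 to 0.51). Hist3h2a had 14.3 and 20.4 CPM in LPS and 2.72 and 3.04 in AGE+LPS (log2 fold change -2.59, SE 0.34, adjusted p = 0.039), lower in both lanes. It was called in every alternative run, with a log2 fold change from -2.82 without LPS replicate 1 to -2.31 without LPS replicate 2 and an adjusted p of 6.4e-16 to 0.045. In AGE+LPS the level of this gene lay below that of Control in both libraries.

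Class medians in AGE+LPS against LPS were 0.69 for H1 (4 tested), -0.19 for H2A (7), 0.05 for H2B (8), 0.12 for H3 (7) and 0.21 for H4 (10). Hist1h1b had 3.76 and 0.921 CPM in LPS and 6.43 and 3.34 in AGE+LPS and did not pass the test (log2 fold change 1.11, adjusted p = 0.47). With the replicate as a block it was called higher (log2 fold change 1.16, adjusted p = 0.0093, range 0.0093 to 0.9). That fit called 1 member higher and 1 lower, where 4.91% of all genes were called higher and 4.82% lower. Hist1h1c had 289 and 175 CPM in LPS and 532 and 269 in AGE+LPS (log2 fold change 0.79, adjusted p = 0.34) and was called without AGE+LPS replicate 2 (log2 fold change 1.21, adjusted p = 0.026, range 1.1e-10 to 0.93). Without LPS replicate 1, Hist1h1b (2.39, adjusted p = 0.048) and Hist1h1d (1.58, adjusted p = 0.045, range 0.013 to 1) were called as well. With 1 library left out at a time, the log2 fold change ran from 0.38 without LPS replicate 2 to 2.39 without LPS replicate 1 for Hist1h1b, from 0.22 without AGE+LPS replicate 1 to 1.21 without AGE+LPS replicate 2 for Hist1h1c and from -0.02 without LPS replicate 2 to 1.58 without LPS replicate 1 for Hist1h1d. The fit without AGE+LPS replicate 2 called 4.72% of all genes in either direction, and that without LPS replicate 1 called 5.1%. Where a group is left with 1 library, that library is assumed to vary like the others.

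In FruArg+LPS against LPS, 35 members were tested and 0 were DEGs by edgeR, with 0% of all 12071 genes called in either direction (1543 at unadjusted p below 0.05). A further 10 members were at 0 in all libraries and 20 had too few counts. DESeq2 called 1 member, Hist3h2a, and 0.92% of all genes, and edgeR with a filter of at least 1 count called the same member and 2.36% of all genes. In the fit first given 4 members had an unadjusted p below 0.05: Hist1h1c, Hist3h2a, Hist1h2bc and Hist1h3e. The median log2 fold change of the members was 0.06, from -0.41 without FruArg+LPS replicate 1 to 0.47 without LPS replicate 1, and the class medians were 0.41 for H1, -0.15 for H2A, -0.16 for H2B, 0.26 for H3 and 0.15 for H4. Hist3h2a had 14.3 and 20.4 CPM in LPS and 3.67 and 4.76 in FruArg+LPS (log2 fold change -2.03, SE 0.41, adjusted p = 0.18), lower in both lanes. Hist1h3e had 6.39 and 1.93 CPM in LPS and 16.1 and 7.24 in FruArg+LPS (log2 fold change 1.51, SE 0.63, adjusted p = 0.38), higher in both lanes. With the replicate as a block both were called, Hist3h2a lower (adjusted p = 1.2e-05, range 1.2e-05 to 0.57) and Hist1h3e higher (log2 fold change 1.59, adjusted p = 0.0042, range 0.0022 to 1), where 3.48% of all genes were called lower and 2.87% higher. Without LPS replicate 1, Hist3h2a was called (adjusted p = 0.035), as 1.61% of all genes were in either direction. Without FruArg+LPS replicate 2, 5 members were called, with log2 fold changes or adjusted p in brackets: Hist3h2a (adjusted p = 0.0019), Hist1h3e (1.98), Hist1h2bc (-1.17), Hist1h4f (1.37) and Hist1h4a. These were 5 of 40 members tested in that fit, near the 11.8% of all genes that it called in either direction, and so no result about the members. The log2 fold change of Hist1h3e ran from 0.84 without FruArg+LPS replicate 1 to 2.56 without LPS replicate 1, that of Hist1h2bc from -1.17 without FruArg+LPS replicate 2 to -0.43 without LPS replicate 2 and that of Hist1h4f from -0.50 without FruArg+LPS replicate 1 to 1.60 without LPS replicate 1. Hist1h2bc had 291 and 456 CPM in LPS and 166 and 263 in FruArg+LPS (log2 fold change -0.80, adjusted p = 0.36), and Hist1h1c had 289 and 175 and 444 and 378 (log2 fold change 0.83, adjusted p = 0.31).

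FruArg+LPS against AGE+LPS, the direct comparison of both compounds, had 33 members tested, 10 at 0 in all libraries and 22 with too few counts, and gave 0 DEGs among them by edgeR, 0 by DESeq2 and 0 with the replicate as a block, with 4 at unadjusted p below 0.05 (Hist1h2bg, Hist1h3c, Hist1h3e and Hist1h4b, named after their values were seen except Hist1h3c and Hist1h3e). Over all 11915 genes, 0% were called in either direction (668 at unadjusted p below 0.05), and with the block 0.352% were called lower and 0.546% higher. The median log2 fold change of the members was -0.15, from -0.45 without AGE+LPS replicate 2 to 0.41 without AGE+LPS replicate 1. Hist3h2a had 2.72 and 3.04 CPM in AGE+LPS and 3.67 and 4.76 in FruArg+LPS (log2 fold change 0.55, adjusted p = 0.87), so the call in AGE+LPS against LPS and its absence in FruArg+LPS against LPS do not show a difference between the compounds. Hist1h3e had 6.58 and 2.28 CPM in AGE+LPS and 16.1 and 7.24 in FruArg+LPS (log2 fold change 1.37, adjusted p = 0.84) and was called higher without FruArg+LPS replicate 2 (1.84, adjusted p = 0.045, range 0.045 to 1), in a fit that called 1.85% of all genes in either direction. Its log2 fold change ran from 0.70 without FruArg+LPS replicate 1 to 2.33 without AGE+LPS replicate 1. Scaling by library size alone moved the median of all genes to -0.15 in this comparison and to 0.15 in AGE+LPS against LPS, and changed no member's call in either.

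Genes of DNA replication and mitosis fell together with the histone genes in LPS against Control. Of these and the gene lists that follow, the 3 most abundant genes were named by rule, and any other was named after its values were seen. Of 25 S-phase genes tested, 19 were down-regulated (18 by DESeq2, 20 with the replicate as a block), against 11.1% of all genes called lower by edgeR. These S-phase genes had a median of -1.74 and summed levels of 1209 and 1395 CPM in Control and 480.4 and 444 in LPS. The most abundant were Mcm6, a helicase subunit (log2 fold change -1.30, adjusted p = 0.0019), Rrm1, a ribonucleotide reductase subunit (log2 fold change -2.17, adjusted p = 0.00019), and Pcna, the polymerase clamp, whose fold stayed below the minimum (log2 fold change -0.83, adjusted p = 0.011). All 13 G2 and M phase genes were down-regulated, with a median of -2.76. Their sum was 489 and 583 CPM in Control, 92.8 and 76.8 in LPS, 119 and 119.6 in AGE+LPS and 79.0 and 66.1 in FruArg+LPS. Top2a, a topoisomerase, had a log2 fold change of -3.10 (adjusted p = 6.5e-05), Cdk1, the mitotic kinase, -2.92 (adjusted p = 5.2e-05), and Mki67, a proliferation marker, -2.75 (adjusted p = 8e-05). Of 9 inhibitors and pocket proteins of the cell cycle tested, Cdkn1a (log2 fold change 3.03, adjusted p = 6.2e-05), Cdkn1b (log2 fold change 1.14, adjusted p = 0.0032) and Cdkn2b were up-regulated, Cdkn2c and Rbl2 were down-regulated, Cdkn2a did not pass (log2 fold change 0.41, adjusted p = 0.21), and the median was 0.23. Over all genes, 11.1% were called lower and 11.5% higher in LPS against Control. Whether fewer cells in S phase account for the histone values was not tested.

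S-phase genes were lower in the other comparisons with Control too, 23 of 25 in AGE+LPS (20 by DESeq2, median -2.02) and 20 of 25 in FruArg+LPS (20 by DESeq2, median -2.42). Over all genes, 7.41% and 7.84% were called lower in these comparisons, and 7.64% and 9.59% higher. Of 13 G2 and M phase genes, 13 and 12 were lower (13 and 12 by DESeq2, medians -2.08 and -2.84). Cdkn1a, Cdkn2a and Cdkn2b were up-regulated and Cdkn2c and Rbl2 down-regulated in each, except that DESeq2 did not call Cdkn2c in FruArg+LPS. In the comparisons among LPS-treated groups edgeR called 0 G2 and M phase genes and 0 inhibitors, and calls of S-phase genes in them are not given here. In AGE+LPS against LPS, 4 of 12 G2 and M phase genes and 4 of 10 inhibitors had an unadjusted p below 0.05, and DESeq2 called 1 and 2. Over all genes, 17.8% had such a p in this comparison, 12.8% in FruArg+LPS against LPS and 5.61% in FruArg+LPS against AGE+LPS, and DESeq2 called 2.42%, 0.92% and 0%. No test was run of these lists against all genes. The numbers in FruArg+LPS against LPS were 0 and 3 at unadjusted p and 0 and 1 by DESeq2. For FruArg+LPS against AGE+LPS they were 3 and 1 at unadjusted p and 0 by DESeq2. With the replicate as a block, AGE+LPS against LPS had Aurka, Aurkb, Cdc20 and Birc5 higher among G2 and M phase genes, and Cdkn2a and Cdkn2c higher and Cdkn1a lower among inhibitors. With the block, FruArg+LPS against LPS had Cenpe lower among G2 and M phase genes and Cdkn2a higher among inhibitors. The block called 4.91% of all genes higher and 4.82% lower in AGE+LPS against LPS. In FruArg+LPS against LPS it called 2.87% higher and 3.48% lower. Median log2 fold changes of S-phase genes, G2 and M phase genes and inhibitors without the block were -0.23, 0.42 and -0.05 in AGE+LPS against LPS and -0.47, -0.14 and -0.18 in FruArg+LPS against LPS. In FruArg+LPS against AGE+LPS they were -0.33, -0.84 and 0.04.

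Genes of histone mRNA synthesis and processing had a median log2 fold change of -0.05 over 18 tested in LPS against Control. Among them Hinfp, a transcription factor of H4 genes, was up-regulated (log2 fold change 1.12, adjusted p = 0.0059) and Ccne1, a cyclin of S-phase entry, was down-regulated (log2 fold change -1.66, adjusted p = 0.002). A single call in each direction is below the 11.5% of all genes called higher and 11.1% called lower. It is no result about the list. Slbp, whose product binds the stem-loop, had a log2 fold change of -0.21 (adjusted p = 0.51), and Npat, the coactivator of histone genes, of 0.37 (adjusted p = 0.32). The most abundant genes of the list, Cpsf2 (log2 fold change 0.53, adjusted p = 0.09), Srrt (log2 fold change 0.56, adjusted p = 0.058) and Sympk (log2 fold change 0.32, adjusted p = 0.37), did not pass the test. Ccne1 and Ccne2 were the genes down-regulated in AGE+LPS against Control (17 tested) and in FruArg+LPS against Control (18 tested). These calls are near the 7.41% and 7.84% of all genes called lower, and so no result about the list. Among the LPS-treated groups 0 were called by edgeR or DESeq2 (Ccne2 lower with the block in the comparisons of either compound with LPS). With the block, 4.82% of all genes were called lower in AGE+LPS against LPS and 3.48% in FruArg+LPS against LPS. At unadjusted p below 0.05 there were 3 of 17 in AGE+LPS against LPS, 2 of 18 in FruArg+LPS against LPS and 0 of 17 in FruArg+LPS against AGE+LPS, near or below the shares of all genes (17.8%, 12.8% and 5.61%), with medians of -0.19 in AGE+LPS against LPS and -0.22 in FruArg+LPS against LPS.

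Of 9 histone variant genes tested that are not members, 5 were down-regulated in LPS against Control (median -1.10): H2afz, H2afv, H2afx, Cenpa and H1f0. Whether these genes are expressed independently of S phase in these cells was not tested. Over all genes, 11.1% were called lower. H2afx, the variant phosphorylated at DNA breaks, had a log2 fold change of -3.65 (adjusted p = 6.5e-05) and Cenpa, the centromeric H3, of -3.69 (adjusted p = 0.00017). H3f3b, one of the genes of the variant H3.3, was higher at 0.70 (adjusted p = 0.04), below the fold minimum, and H3f3a (log2 fold change 0.34, adjusted p = 0.59) and H2afj (log2 fold change 0.33, adjusted p = 0.52) did not pass. H2afx and Cenpa were down-regulated in AGE+LPS against Control, where 7.41% of all genes were called lower. In FruArg+LPS against Control, H2afz (not with the block), H2afx and Cenpa were down-regulated and H3f3a was up-regulated. That comparison had 7.84% of all genes called lower and 9.59% higher. Medians were 0.76 in AGE+LPS against LPS and 0.77 in FruArg+LPS against LPS, with 0 called by edgeR or DESeq2 and 3 and 2 genes at unadjusted p below 0.05 (0 called and 2 at unadjusted p in FruArg+LPS against AGE+LPS). Over all genes, 17.8%, 12.8% and 5.61% had such an unadjusted p in these comparisons, in the order given. With the block, Cenpa and H1f0 were higher in AGE+LPS against LPS, and H3f3a was higher in FruArg+LPS against LPS and against AGE+LPS. In the same order, the block called 4.91%, 2.87% and 0.546% of all genes higher.

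Among 19 histone chaperone genes, 5 were down-regulated in LPS against Control and 1, Daxx, a chaperone of H3.3, was up-regulated. Over all genes, 11.1% were called lower and 11.5% higher, so a single higher call is no result about the list. Daxx had 45.8 and 59.5 CPM in Control, 265 and 296 in LPS, 102 and 97.3 in AGE+LPS and 132 and 179 in FruArg+LPS. Its log2 fold change was 2.44 (adjusted p = 7.9e-05) in LPS against Control and -1.49 (adjusted p = 0.039) in AGE+LPS against LPS, in which edgeR called no other chaperone gene. Of all genes, edgeR called 0.796% in AGE+LPS against LPS in either direction. DESeq2 also called Ssrp1 higher and Hat1 and Hjurp lower there, and so did the block, which called Ipo4 higher too. DESeq2 called 2.42% of all genes in that comparison, and the block called 4.82% lower and 4.91% higher. The down-regulated genes were Asf1a, Asf1b, Chaf1a, Nap1l1 and Anp32e, of which Asf1b, a chaperone of newly made H3 and H4, had a log2 fold change of -2.54 (adjusted p = 0.00054). DESeq2 did not call Asf1a. Nap1l4 (log2 fold change 0.40, adjusted p = 0.16) and Rbbp7 (log2 fold change -0.69, adjusted p = 0.028) did not reach the fold minimum. In AGE+LPS against Control, Asf1b, Chaf1a, Hira (not by DESeq2) and Nap1l1 were down-regulated, where 7.41% of all genes were called lower. In FruArg+LPS against Control, 6 were down-regulated and Daxx was up-regulated, where 7.84% of all genes were called lower and 9.59% higher. FruArg+LPS against LPS had 0 called by edgeR, 1 by DESeq2 and 4 at unadjusted p below 0.05, with Hat1 lower with the block. Over all genes, DESeq2 called 0.92% there, 12.8% had such an unadjusted p and the block called 3.48% lower. FruArg+LPS against AGE+LPS had 0 called by edgeR or DESeq2 and 1 at unadjusted p below 0.05, against 5.61% of all genes.

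Markers of the cell type and of the stimulus were read as a check. Microglia and macrophage markers summed to 2644 and 3115 CPM in Control and 2466 and 2758 in LPS, with Ptprc the most abundant, and of 11 tested, Itgam, Trem2, Cx3cr1 and P2ry12 were down-regulated in LPS against Control. Of all genes, 11.1% were called lower in that comparison. Markers of neurons, astrocytes, T and B cells, and fibroblasts reached at most 1.87, 1.29, 1.15 and 0.125 CPM in any library (most abundant Tubb3, Slc1a3, Cd3d and Col1a1), and none could be tested. The response genes Nos2, Il6, Il1b and Tnf were up-regulated in LPS against Control, with log2 fold changes of 9.54, 10.07, 8.08 and 3.71.

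The data have limits for these genes. Poly-A libraries sample replication-dependent histone mRNA in part, so a change may lie in the polyadenylated share or in total histone mRNA, and the data do not separate these. With 2 libraries per group, and replicate number tied to the sequencing lane, replicate and lane cannot be told apart. Single paralogs with few distinct windows may share or lose reads. The fraction of cells in S phase was not measured, no group received AGE or FruArg without LPS, and protein levels of histones were not measured.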

How the data were processed

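Counts per gene were deposited by the authors, who mapped reads to GRCm38 with TopHat2 and counted them with featureCounts, per the labels and methods. Strand and the handling of multiply mapped reads are not given in the sources used here. All 8 libraries were used, and each comparison was fitted on the 4 libraries of its groups over the whole table with edgeR 4.0.16 in R 4.3.3 (filterByExpr, TMM, two-sided quasi-likelihood F-test), Benjamini-Hochberg adjusted over all genes tested. The standard error is the absolute log2 fold change divided by the square root of F. Levels are TMM CPM over 8 libraries. Members and gene lists were chosen with earlier results of these data known. Named genes were the 5 members of each class with the highest mean CPM, members called among LPS-treated groups, and the 3 most abundant genes of each other list. Replicate number equals sequencing lane per the labels (replicate 1 lane 3, replicate 2 lane 6), and differences between replicates correlated across genes between groups (r 0.244 to 0.628, genes not being independent), so a fit with replicate as a block was run. The other alternatives were RLE scaling, library size alone, filters of 1 and 10 counts, DESeq2 1.42.0, all groups in one fit, adjusted p alone and each library left out. Medians in each lane alone, and the limit of 100 bases after the stem-loop, were chosen after seeing the data. Replicates differed by more than counting noise in every group.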

Additional observations from a re-analysis of the deposited data

How the results depend on the processing

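With 4 groups in one fit, RLE scaling, library size alone, DESeq2, filters on low counts, the replicate block or 1 library left out, no call of a gene named by rule was reversed. Over these genes in LPS against Control, 162 results under other settings and 93 with a library left out kept their call, 3 and 3 lost it and 1 gained it. In AGE+LPS against LPS 156 and 89 kept it and 1 and 3 gained it, and in FruArg+LPS against LPS 152 and 86 kept it and 4 and 5 gained it. In LPS against Control 42 to 44 members were called with 1 library left out, and 29 with at least 10 counts required in every library, where fewer genes are tested. Over all genes, edgeR with that filter called 1138 higher and 1154 lower of 10731 tested in LPS against Control. It left 22 members in AGE+LPS against Control and 18 in FruArg+LPS against Control, again because fewer genes are tested. The exception was Hist1h2ac in AGE+LPS against Control, which was tested and missed the threshold (adjusted p = 0.051, range 1.9e-05 to 0.09). Of all genes, 711 were called higher and 707 lower of 10676 in AGE+LPS against Control. In FruArg+LPS against Control, 928 were called higher and 736 lower of 10154. Leaving out a library gave 41 to 43 and 35 to 42 in these. In AGE+LPS against LPS the block gave 2 called members and leaving out a library 1 to 3, against 1. In FruArg+LPS against LPS, where 0 were called, the block gave 2, DESeq2 1 (with 0.92% of all genes called), a filter of at least 1 count 1 (with 2.36%), and leaving out a library 0 to 5. Leaving out a library gave 0 to 1 in FruArg+LPS against AGE+LPS. The cause was not tested. The block changed no other call of a member than those given in the results. The lane-alone medians, chosen after seeing the data, were -2.83 (lane 3) and -3.26 (lane 6) in LPS against Control, 0.14 and 0.17 in AGE+LPS against LPS, and -0.09 and -0.07 in FruArg+LPS against LPS, where the median of the fit was 0.06 and ran from -0.41 to 0.47 with a library left out. They were -2.78 and -3.04 in AGE+LPS against Control, -2.96 and -3.23 in FruArg+LPS against Control, and -0.25 and 0.23 in FruArg+LPS against AGE+LPS. In the comparisons among LPS-treated groups, whose libraries hold fewer member counts per total count than Control, 33 to 36 members could be tested. A library left alone in its group is assumed to vary like the others.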

Other observations

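Within each group, more members were higher in lane 3 (replicate 1) than in lane 6 (replicate 2). Of 50 members, 32 were higher in lane 3 in Control, 36 in LPS, 37 in AGE+LPS and 32 in FruArg+LPS, and the median log2 difference was 0.20, 0.60, 0.61 and 0.27. Over 12888 genes, 49.1%, 51.7%, 50.4% and 48.1% were higher in lane 3, with median log2 differences of -0.01, 0.02, 0.005 and -0.03. No test was run on these values, members can share reads and are not independent, and lane and culture replicate cannot be told apart.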
